A study of Mus musculus with 22 samples.

Results

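Levels of 10 genes of the piRNA pathway were followed in mouse fully-grown GV oocytes of 8 genotypes. The genes are *Piwil1*, *Piwil2*, *Piwil4*, *Tdrd1*, *Tdrkh*, *Ddx4*, *Mov10l1*, *Pld6*, *Asz1* and *Mael*. They were chosen by gene symbol, with earlier results of these data known, and all 10 are among the 52636 genes of the deposited table. All mice were labelled C57BL/6. A first set of libraries was sequenced with single-end reads and held wild type (WT, n = 3), *Dicer* ΔMT/WT (n = 1), *Dicer* ΔMT/ΔMT (n = 4) and *Dicer* SOM/SOM (n = 3), with no age given. The ΔMT allele lacks the retrotransposon-derived promoter of the oocyte-specific Dicer isoform. The SOM allele lacks introns at the start of the gene, encodes HA-tagged full-length Dicer in every cell that expresses *Dicer*, and goes back to a founder from 1 embryonic stem cell clone. The other libraries were sequenced with paired-end reads and carried *Mili* DAH, an allele of *Piwil2* with a mutated catalytic site, in each group. Heterozygous controls (n = 4) carried *Mili* DAH/WT with *Dicer* SOM/WT and came from females aged 10, 17, 36 and 38 weeks. RNAi mutants (n = 2, 13 and 17 weeks) were *Dicer* SOM/SOM on *Mili* DAH/WT. Double mutants (n = 4, 11, 11, 35 and 40 weeks) combined *Dicer* SOM/SOM with *Mili* DAH/DAH. The piRNA mutant (n = 1, 16 weeks) had *Dicer* SOM/WT and *Mili* DAH/DAH. No library of the paired-end run was wild type at both loci, and each library was made from pooled oocytes. Nothing in the labels says which libraries came from separate animals, so that p-values measure the spread between these libraries.

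piRNAs are small RNAs bound by PIWI proteins, and in the germline they guide the cleavage of retrotransposon RNA and the silencing of retrotransposons in chromatin. Precursor RNAs are unwound by helicases, cut by a nuclease on the surface of mitochondria and loaded onto PIWI proteins, while Tudor-domain proteins hold these factors together in granules called nuage. Loss of the pathway arrests spermatogenesis in mice, whereas mutant females are fertile, and mouse oocytes also carry an RNAi pathway that rests on the oocyte-specific Dicer.

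The 3 PIWI genes were compared at the site that the DAH allele changes, because a mutated codon leaves the read count of the gene in place. The windows below run from 5′ to 3′ on the coding strand and hold 9 codons around that of the second aspartate of the catalytic triad, which is in capitals and which the DAH allele replaces by alanine. They are shown as the reference has them, from GENCODE M21 transcripts (GRCm38).
Piwil2: gtggtgtaccgaGATggagtgtctgat
Piwil1: atcgtgtaccgaGACggtgtgggggac
Piwil4: gtcgtgtaccggGACggtgtaggcaat
The *Piwil2* window lies in exon 21 of 23 at chr14:70376863-70376889 on the minus strand, that of *Piwil1* in exon 19 of 22 at chr5:128751032-128751058 on the plus strand, and that of *Piwil4* in exon 17 of 19 at chr9:14704983-14705009 on the minus strand. Of the 27 bases, 8 differ between *Piwil1* and *Piwil2* and 9 between *Piwil4* and *Piwil2*. No base changes were read from these libraries, so the *Piwil2* values below are no check of the *Mili* labels.

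Promoter sequence is shown because 6 of the members hold a motif there. The shares below therefore describe these promoters and are no test. RefSeq promoters (GRCm38.p6) were given for 9 of the 10 genes, all except *Piwil2*, and the 250 bases before each start were searched for the E-box hexamer CACGTG, which reads the same on both strands. It was present in 6 of the 9 genes (66.7%), compared with 6.86% of 27025 genes. Among windows with at least 10 CpG dinucleotides, it was present in 7 of 11 windows of members (63.6%) and in 9.37% of 12417 windows. Overlapping windows of *Tdrd1* hold the same hexamer and were counted apart. The stretches below hold 30 bases each on the strand of the gene, with the hexamer in capitals.
Mael: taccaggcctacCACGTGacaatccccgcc
Ddx4: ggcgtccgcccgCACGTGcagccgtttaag
Mov10l1: ccttCACGTGctaaccgccaacctctcgtg
Piwil1: aaaaccgccaccCACGTGgcagccaatcag
Piwil1: atcagggcccagCACGTGtccacctcgccg
Tdrd1: gcgtgggtggggctgcgcgCACGTGggagt
Pld6: ggggcgggctggCACGTGttgggcgcgcaa
The hexamer began 223 bases before the start of *Mael* (chr1:166238950-166238979, minus strand), 29 bases before that of *Ddx4* (chr13:112652322-112652351, minus strand), 246 bases before that of *Mov10l1* (chr15:88982744-88982773, plus strand) and 33 bases before that of *Pld6* (chr11:59787673-59787702, minus strand). In *Piwil1* it was found 179 and 154 bases before the start (chr5:128736055-128736084 and chr5:128736080-128736109, plus strand), and in *Tdrd1* 11 bases before it (chr19:56826179-56826208, plus strand). No match was found in the windows of *Asz1*, *Tdrkh* and *Piwil4*. Among the other genes of the pathway with a promoter entry, 4 of 16 held the hexamer (25.0%).

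The table holds estimated counts per GENCODE M15 gene, given here as CPM (counts scaled to the size of the library, after TMM correction of that size) and, where genes are compared, as RPKM, the CPM per kilobase of exon. Total counts of the single-end libraries ran from 6468380 to 90713013 and those of the paired-end libraries from 22928936 to 43540806. *Dicer* SOM/SOM replicate 3 had the fewest counts, with 3 counts equal to 0.431 CPM. Of 12 oocyte markers, 11 were above 10 CPM in every library. Of 8 granulosa cell markers, *Nr5a2* and *Cyp19a1* were above 10 CPM in every library. In their highest library, *Inha* reached 10.5 CPM, *Fst* 3.03, *Hsd17b1* 2.78, *Amh* 2.59, *Fshr* 2.13 and *Foxl2* 1.21 CPM. The summed level of the 8 was 85.4 to 94.6 CPM in WT, 70.8 to 79.8 in *Dicer* SOM/SOM, 65.1 to 79.3 in *Dicer* ΔMT/ΔMT, 85.9 to 127 in heterozygous controls, 76.3 to 86.9 in RNAi mutants and 72.6 to 86.4 in double mutants, and its part in the results was not tested. Of 7 leukocyte markers, *Ms4a1* alone was above 10 CPM in every library, 4 never exceeded 1 CPM and *Ptprc* was at 0.440 CPM at most. The summed level of the 7, nearly all of it *Ms4a1*, was 48.3 to 50.4 CPM in WT, 29.05 to 33.97 in *Dicer* SOM/SOM, 39.8 to 52.1 in *Dicer* ΔMT/ΔMT, 48.7 to 65.2 in heterozygous controls, 41.7 to 42.7 in RNAi mutants and 32.7 to 62.2 in double mutants, and its part was not tested either. *Gm42418*, which overlaps rRNA, parted the paired-end libraries into 6 with 4083 to 5500 CPM and 5 with 294 to 557 CPM, and both sets held controls and double mutants of both ages, while both RNAi mutants were in the former. In the single-end run it was highest in *Dicer* SOM/SOM replicates 1 and 3, at 12713 and 17275 CPM, against 4758 to 7566 in the other libraries. *Dicer1*, the targeted gene, was at 1014 CPM ± 29.7 (SD, n = 3) in WT, 486 ± 44.8 (n = 4) in *Dicer* ΔMT/ΔMT, 49.4 ± 6.87 (n = 3) in *Dicer* SOM/SOM, 639 ± 110 (n = 4) in heterozygous controls, 57.9 ± 5.86 (n = 2) in RNAi mutants and 57.6 ± 3.24 (n = 4) in double mutants, in the order of the labels.

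The members spanned a wide range of levels in control oocytes, with the Tudor-domain gene *Tdrd1* far above the rest. Per exon length, *Tdrd1* was at 292 RPKM ± 7.75 (SD, n = 3) in WT and 243 ± 30.6 (n = 4) in heterozygous controls, rank 131 of 23151 and rank 150 of 20989 tested genes. It made up 74.0% of the summed RPKM of the 10 genes in WT and 65.4% in controls. *Asz1*, which encodes the mitochondrial and nuage protein GASZ, followed with 41.5 ± 3.21 RPKM in WT and 46.7 ± 7.82 in controls. *Mael*, coding for the nuage protein Maelstrom, was at 23.9 ± 2.70 and 34.9 ± 5.73 RPKM. The nuage helicase *Ddx4* (VASA) was at 12.6 ± 1.71 and 18.5 ± 3.15 RPKM and *Tdrkh*, a Tudor-domain protein on mitochondria, at 11.7 ± 1.23 and 16.6 ± 1.61 RPKM, and the ranges of both genes overlapped in each run.

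The PIWI genes and the enzymes that make piRNA ends stood lower. *Piwil1* (MIWI) had 6.87 ± 1.04 RPKM in WT and 6.28 ± 0.865 in controls, and *Mov10l1*, the helicase that binds piRNA precursors, 3.37 ± 0.0630 and 3.52 ± 0.231 RPKM. *Pld6*, the mitochondrial nuclease that cuts precursors, was at 1.45 ± 0.618 and 0.952 ± 0.311 RPKM and *Piwil2* (MILI) at 0.958 ± 0.291 and 1.19 ± 0.608 RPKM, with overlapping ranges and a different order in the runs. The other neighbours in the order did not overlap, except *Asz1* and *Mael* in heterozygous controls. *Tdrd1* ranked highest and *Piwil4* lowest of the 10 in the means of all 8 genotypes, and *Mov10l1* kept rank 7.

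*Piwil4* (MIWI2), the PIWI protein of chromatin silencing in fetal male germ cells, was at or near 0 throughout. It had 0 to 26 counts per library, 0 of them in heterozygous control replicate 3, RNAi mutants 1 and 2 and double mutant 2. Its highest levels were 0.721 CPM in heterozygous control replicate 2 and 0.211 CPM in *Dicer* ΔMT/ΔMT replicate 4. *Piwil4* did not pass the filter on low counts in either run and shares 3.37% of its exon bases with *Gm10706* on the opposite strand. The 9 other members passed it in both runs. *Tdrkh* shares 25.7% of its exon bases with *Oaz3* on the opposite strand, and since reads were counted without regard to strand, part of its count may belong to *Oaz3*. For no member was there a transcript of another gene that matched 50% or more of its own at 95% identity or above.

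**Figure D1:**
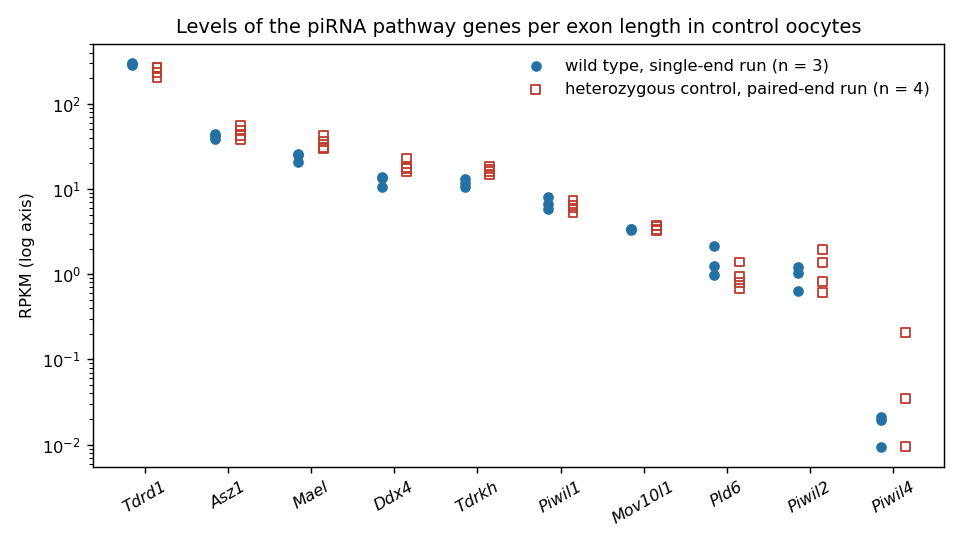
RPKM (log axis) of the 10 genes in each WT library (filled circles, n = 3) and each heterozygous control library (open squares, n = 4). *Tdrd1* lies at 202 RPKM or more in every library and *Piwil4* below all other genes, and its control library at 0 is not drawn.

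The comparison of *Dicer* SOM/SOM with WT asks what the loss of the oocyte Dicer does to these genes. In it, 4 of the 9 tested members were higher at an adjusted p under 0.05 and 0 were lower, where 14.5% of the 23151 tested genes were higher and 14.2% lower. The median log2 fold change was 0.11 over the members and 0.02 over all tested genes. The 4 were *Mael*, *Piwil2*, *Mov10l1* and *Ddx4*, that is, a nuage gene, a PIWI gene and both helicases.

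*Mael* had 36.1, 44.5 and 43.8 CPM in the WT libraries. In *Dicer* SOM/SOM it had 70.5, 81.0 and 103 CPM. The groups did not overlap, and the lowest mutant library was above the highest WT library. This was a log2 fold change of 1.03 ± 0.14 (SE), a 2.04-fold rise, with an adjusted p of 0.000300. An exact two-sided permutation test over the libraries gave p = 0.1, the smallest that 3 against 3 allow. In pooled oocytes, as in any bulk sample, a change in the share of cells that express a gene and a change in its RNA per cell cannot be told apart.

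*Piwil2* had 5.01, 3.14 and 5.96 CPM in WT and 11.1, 11.9 and 10.1 CPM in *Dicer* SOM/SOM. All mutant libraries were above all WT libraries. It rose by 1.25 ± 0.27 on the log2 scale, the largest value among the members, with an adjusted p of 0.00546. *Mov10l1* had 13.7, 14.2 and 13.999 CPM in WT and 17.0, 21.7 and 20.1 CPM in *Dicer* SOM/SOM. Its groups did not overlap either, and the log2 fold change was 0.50 ± 0.11 with an adjusted p of 0.00766. The calls of *Mael*, *Piwil2* and *Mov10l1* were kept under all 16 alternatives that were tried.

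*Ddx4* had 40.3, 32.0 and 41.5 CPM in WT and 62.7, 58.7 and 41.4 CPM in *Dicer* SOM/SOM. Replicate 3 of the mutant lay within the WT range and the other mutant libraries above it. The log2 fold change of 0.54 ± 0.18 passed the test with an adjusted p of 0.0483 and missed it in 10 of 16 alternatives. Among them, it missed without WT replicate 1, 2 or 3 (adjusted p = 0.0866, 0.162 and 0.0722), without *Dicer* SOM/SOM replicate 1 or 2 (adjusted p = 0.154 and 0.125) and without *Dicer* ΔMT/ΔMT replicate 1 or 2 (adjusted p = 0.0624 and 0.0634), whose libraries entered the estimate of the spread.

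The scaffold and mitochondrial members had smaller values in this comparison, none of which passed the test. *Asz1* had 66.3, 77.5 and 72.2 CPM in WT and 62.5, 61.6 and 52.3 CPM in *Dicer* SOM/SOM. The mutant libraries lay below the WT libraries, with a log2 fold change of -0.28 ± 0.10, a 95% interval from -0.50 to -0.06 and an adjusted p of 0.0571, which was 0.0351 with DESeq2. *Tdrd1* had 1633, 1585 and 1549 CPM in WT and 1272, 1599 and 1206 CPM in *Dicer* SOM/SOM, where replicate 2 lay within the WT range. Its log2 fold change was -0.22 ± 0.10 with an adjusted p of 0.115. Without replicate 2 of the mutant, it was -0.36 with an adjusted p of 0.00380. Replicates 1 and 3, which then remain, had the highest *Gm42418* levels of the run (12713 and 17275 CPM), and the part of this was not tested. For the remaining members the 95% intervals of the log2 fold change were -0.25 to 0.40 for *Piwil1*, -0.30 to 0.37 for *Tdrkh* and -0.85 to 1.07 for *Pld6*. The last is wide, since *Pld6* had only 6 to 119 counts per library in this run.

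In *Dicer* ΔMT/ΔMT, where part of the *Dicer1* level remains, only *Mael* passed the test among the members. It had 67.0, 69.9, 63.8 and 59.7 CPM, all above the WT libraries. The log2 fold change was 0.65 ± 0.13 with an adjusted p of 0.00717, and it passed in all 16 alternatives. The exact permutation test gave p = 0.0286, the smallest that 4 against 3 allow. Thus 1 of 9 members was higher and 0 were lower, where 8.06% of all tested genes were higher and 7.3% lower. This comparison shares the WT libraries with the one above.

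*Piwil2* had 7.48, 8.86, 5.44 and 10.7 CPM in *Dicer* ΔMT/ΔMT. Replicate 3 lay within the WT range and the others above it. The log2 fold change was 0.79 ± 0.25 with an adjusted p of 0.0544. It passed with DESeq2 (adjusted p = 0.0125), with a filter at 5 CPM (0.0260), without *Dicer* ΔMT/ΔMT replicate 3 (0.0231) and without WT replicate 3 (0.0493). *Ddx4* had 42.5, 37.3, 32.5 and 48.5 CPM and *Mov10l1* 15.7, 13.95, 14.4 and 14.1 CPM, with 95% intervals of the log2 fold change from -0.29 to 0.46 and from -0.17 to 0.29. The *Tdrd1* libraries, at 1414, 1422, 1413 and 1470 CPM, lay below those of WT, with a log2 fold change of -0.15 ± 0.09 and an adjusted p of 0.288.

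The direct comparison of the *Dicer* alleles gave a higher level in *Dicer* SOM/SOM than in *Dicer* ΔMT/ΔMT for *Mov10l1*, with a log2 fold change of 0.44 ± 0.11 and an adjusted p of 0.0310. The libraries of the alleles did not overlap. The call was lost without *Dicer* SOM/SOM replicate 2 (adjusted p = 0.105), without *Dicer* ΔMT/ΔMT replicate 2, 3 or 4 (0.0942, 0.0802 and 0.0735) and without WT replicate 1, 2 or 3 (0.0526, 0.0532 and 0.0501). This was 1 of 9 members higher and 0 lower, where 4.03% of all tested genes were higher and 3.32% lower. For *Mael* the difference between the alleles was 0.38 ± 0.13 on the log2 scale (95% interval 0.10 to 0.66, adjusted p = 0.101), with no overlap between the groups. For *Piwil2* it was 0.46 ± 0.25 (-0.082 to 0.998, adjusted p = 0.296), for *Ddx4* 0.45 ± 0.17 (0.08 to 0.83, adjusted p = 0.135) and for *Asz1* -0.34 ± 0.09 (-0.55 to -0.14, adjusted p = 0.0510). The differences for *Asz1* and *Mael* passed with DESeq2 and with a filter at 5 CPM (adjusted p = 0.0411 and 0.0456 for *Mael*). That for *Ddx4* passed without *Dicer* SOM/SOM replicate 3 (adjusted p = 0.0476).

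The single *Dicer* ΔMT/WT library allows no test. Its *Mael* level of 40.1 CPM lay within the WT range. *Piwil2* (1.66 CPM), *Ddx4* (23.8) and *Pld6* (0.787) were below every WT library, and *Tdrd1* (1958), *Piwil1* (37.4), *Mov10l1* (15.9) and *Piwil4* (0.0823) above. For *Piwil2* and *Ddx4* it was the lowest library of the single-end run.

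**Figure D2:**
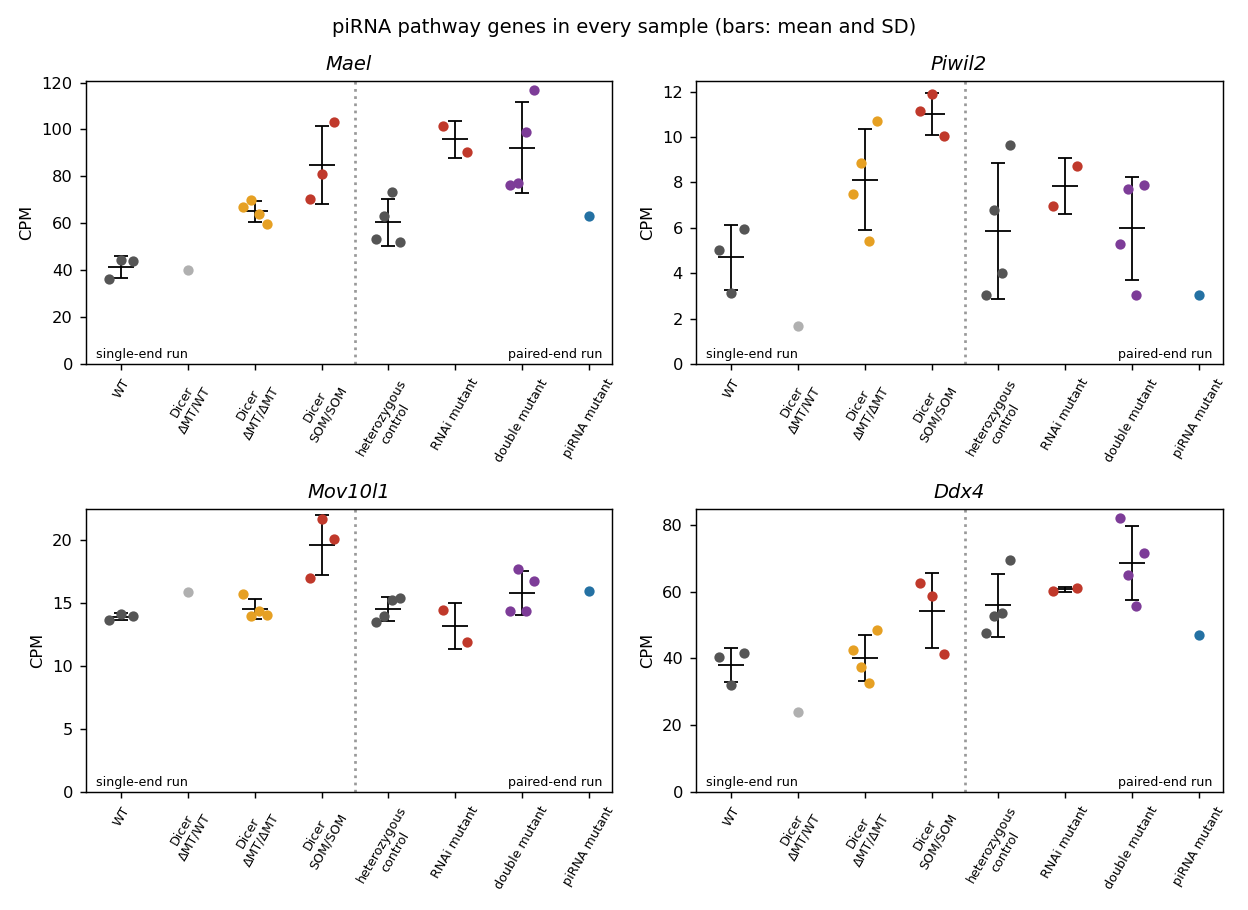
CPM (axes from 0) of *Mael*, *Piwil2*, *Mov10l1* and *Ddx4* in each of the 22 libraries, with bars for the mean and SD of groups with more than 1 library and a dotted line between the runs. *Mael* is higher in *Dicer* ΔMT/ΔMT, *Dicer* SOM/SOM, RNAi mutants and double mutants than in the controls of the run. The *Dicer* ΔMT/WT library lies within WT for *Mael*, below it for *Piwil2* and *Ddx4* and above it for *Mov10l1*. The *Piwil2* and *Mov10l1* libraries of *Dicer* SOM/SOM stand above those of WT, while the paired-end groups overlap.

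In the paired-end run, RNAi mutants were compared with heterozygous controls, which carry 1 *Dicer* SOM allele, with *Mili* DAH/WT in both groups. The *Dicer1* level of these controls was 639 CPM, against 1014 CPM in WT of the single-end run, and genotype and run cannot be told apart there. *Mael* had 53.4, 73.3, 63.1 and 51.9 CPM in heterozygous control replicates 1o, 2o, 2 and 3 and 101 and 90.3 CPM in RNAi mutants. Both RNAi mutants lay above the highest control, and the log2 fold change was 0.66 ± 0.19 with an adjusted p of 0.0430. The exact permutation test gave p = 0.0667, the smallest that 4 against 2 allow. The call was lost without RNAi mutant replicate 1 or 2 (adjusted p = 0.265 and 0.115) and without heterozygous control replicate 1o, 2 or 3 (0.0989, 0.0574 and 0.0986), and the value stayed between 0.57 and 0.77 with any library left out. It was also lost in younger females only (0.73, adjusted p = 0.0671), with an age term (0.0501) and with a replicate block (0.0842). Both RNAi mutants were in the set with much *Gm42418*, and with a term for the sets the value was 0.89 (adjusted p = 0.000721).

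*Mael* was the only member called here, with 1 of 9 higher and 0 lower, where 7.07% of the 20989 tested genes were higher and 3.64% lower. The members that rose in *Dicer* SOM/SOM had log2 fold changes of 0.43 ± 0.43 (*Piwil2*), 0.12 ± 0.18 (*Ddx4*) and -0.14 ± 0.18 (*Mov10l1*). Both RNAi mutants were from younger females, and against younger controls only, that of *Piwil2* was -0.07 (adjusted p = 0.941). *Piwil2* had 3.02, 3.997, 6.77 and 9.66 CPM in controls 1o, 2o, 2 and 3 and 6.96 and 8.73 CPM in RNAi mutants. The controls enclosed both RNAi mutants, as did the younger controls (replicates 2 and 3) alone. *Mov10l1* had 13.5, 15.3, 14.004 and 15.4 CPM in controls and 14.5 and 11.9 CPM in RNAi mutants, and its groups overlapped.

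Whether the effect of *Dicer* SOM/SOM differed between the runs was tested as an interaction over both. None of the 9 members passed, where 0.00806% of 24824 tested genes did. The count with an unadjusted p under 0.05 was 1 of 9 members, and DESeq2 called 0 as well. That member was *Mov10l1*, with a difference of -0.61 ± 0.20 on the log2 scale (paired-end minus single-end, 95% interval -1.03 to -0.19, adjusted p = 0.389). For *Piwil2* the difference was -0.78 ± 0.55 (-1.92 to 0.36) and for *Mael* -0.34 ± 0.25 (-0.85 to 0.18). Run, read type, *Mili* genotype and the *Dicer* genotype of the controls (WT or SOM/WT) change together in this test and cannot be told apart.

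In double mutants, *Mael* was again the member that rose. It had 77.1, 117, 76.3 and 98.9 CPM in replicates 1o, 2o, 1 and 2. All 4 were above the highest control, and the log2 fold change was 0.61 ± 0.16 with an adjusted p of 0.0156, and the exact permutation test gave p = 0.0286, the smallest that 4 against 4 allow. The adjusted p was 0.0506 without double mutant replicate 2o, 0.0501 without heterozygous control replicate 1o and 0.0501 without replicate 3, and the value lay between 0.48 and 0.72 with any library left out. In younger females only, the adjusted p was 0.0977. In all, 1 of 9 members was higher and 0 lower, where 12.3% of all tested genes were higher and 8.84% lower. The heterozygous controls are those of the comparison above.

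*Piwil1* had 30.5, 26.3, 24.7 and 22.03 CPM in controls 1o, 2o, 2 and 3 and 17.1, 14.9, 21.8 and 21.0 CPM in double mutants 1o, 2o, 1 and 2. The double mutants lay below the controls without overlap, the highest of them just under the lowest control. The log2 fold change was -0.47 ± 0.16 with a 95% interval from -0.82 to -0.12 and an adjusted p of 0.0537. It passed with DESeq2 (adjusted p = 0.0268), without double mutant replicate 1 (0.0442), without heterozygous control replicate 3 (0.0450), with a term for the sets of libraries (0.0417) and with a replicate block (0.0395), and missed the test in the other alternatives. In younger females only, it was -0.12 with an adjusted p of 0.798. *Ddx4* had 47.7, 53.6, 52.7 and 69.6 CPM in controls and 65.0, 71.7, 82.0 and 55.6 CPM in double mutants, with a log2 fold change of 0.30 ± 0.15 (adjusted p = 0.195) and overlapping groups.

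*Piwil2*, the gene that carries the DAH allele, had 7.71, 7.88, 5.28 and 3.05 CPM in double mutants 1o, 2o, 1 and 2, within the range of the controls as a whole. The 95% interval of its log2 fold change over all ages was -0.73 to 0.80. Within the ages the groups were apart in opposite directions. The younger double mutants lay below both younger controls (6.77 and 9.66 CPM), and the older ones above both older controls (3.02 and 3.997 CPM).

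The double mutants were therefore also compared with the controls within each age, a test chosen after the values were seen, in a fit with a coefficient for each genotype and age (edgeR's quasi-likelihood test). In older females, *Piwil2* was higher by 1.15 ± 0.32 on the log2 scale (adjusted p = 0.0385) and *Piwil1* lower, with -0.83 ± 0.19 (adjusted p = 0.0174), where 7.85% of all tested genes were higher and 4.28% lower. In younger females, 0 of 9 members passed, where 7.02% of all tested genes were higher and 3.33% lower, 2 members had an unadjusted p under 0.05, and DESeq2 called 1 (*Piwil2*, lower). The log2 fold change of *Piwil2* was then -0.97 ± 0.32 (adjusted p = 0.0814) and that of *Piwil1* -0.13 ± 0.19. *Mael* had 0.61 ± 0.24 in older and 0.61 ± 0.24 in younger females, with adjusted p-values of 0.130 and 0.146 in this fit. For the difference between the ages (older minus younger), 0 of 9 members passed with edgeR's quasi-likelihood test, where 0.00476% of all tested genes did, and 2 had an unadjusted p under 0.05. These were *Piwil2*, with 2.13 ± 0.45 (adjusted p = 0.548, and 0.0195 with DESeq2, which called it alone among the members), and *Piwil1*, with -0.70 ± 0.27 (adjusted p = 0.796). Each age and genotype had 2 libraries, and *Piwil2* had few counts.

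Double mutants differed from RNAi mutants in the *Mili* genotype, but also in age and in the *Gm42418* set, since both RNAi mutants were from younger females and in the set with much *Gm42418*. Against RNAi mutants, 0 of 9 members passed the test by edgeR's quasi-likelihood test and by DESeq2, 0 had an unadjusted p under 0.05, and all adjusted p-values were 0.9997. In this comparison 0.31% of all tested genes were higher and 0.00476% lower. The log2 fold changes ran from -0.39 (*Piwil2*, 95% interval -1.31 to 0.53) to 0.26 (*Mov10l1*, -0.13 to 0.66), and that of *Mael* was -0.05 (-0.48 to 0.37). With a term for the sets, that of *Mael* was -0.29 (adjusted p = 0.837).

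The piRNA mutant library, with *Dicer* SOM/WT, lay within the control range for 8 of the 10 members. *Mael* had 63.1 CPM and *Piwil2* 3.03 CPM, the latter at the lower end of the controls. *Ddx4* (47.1 CPM) lay below the controls and *Mov10l1* (16.0 CPM) above them, each by less than 1 CPM. Against the controls of the same low *Gm42418* set, *Piwil2* was also below, at 3.997 to 6.77 CPM in those, and *Piwil1* (28.0 CPM against 24.7 to 26.3), *Tdrkh* (106.7 against 98.4 to 105.5) and *Pld6* (1.002 against 0.766 to 0.887) above.

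**Figure D3:**
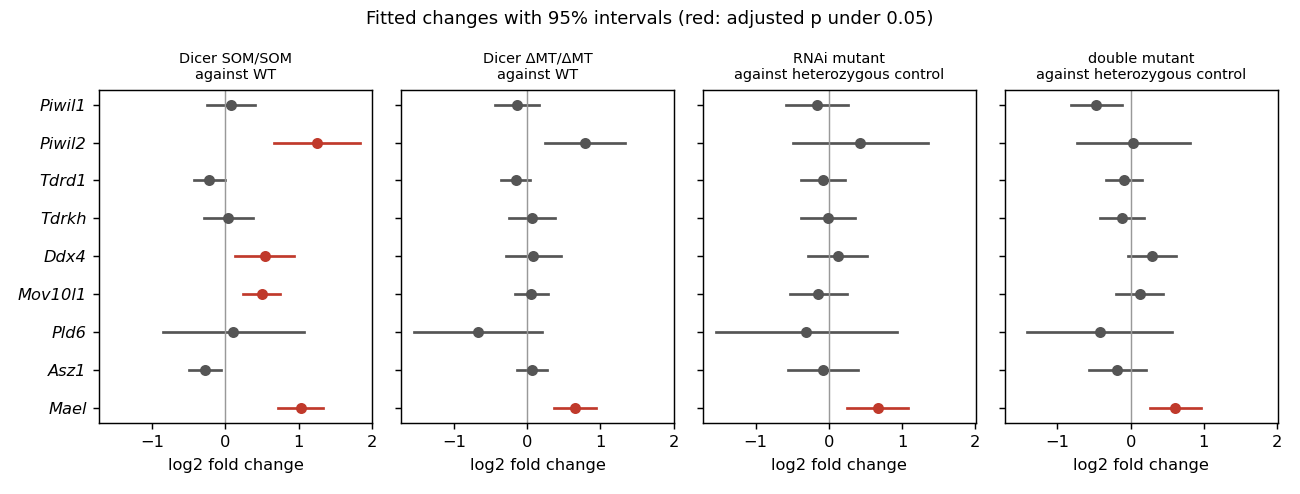
Log2 fold changes (horizontal axis) of the 9 tested members in 4 comparisons, with points for the fitted value and lines for its 95% interval, in red for an adjusted p under 0.05. *Mael* is red in each panel, and *Piwil2*, *Ddx4* and *Mov10l1* only in that of *Dicer* SOM/SOM against WT.

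The double mutants and the controls were also compared within each set of paired-end libraries. In the set with much *Gm42418*, *Mael* was at 76.3 to 77.1 CPM in double mutants and 51.9 to 53.4 CPM in controls, and in the set with little at 98.9 to 117 and 63.1 to 73.3 CPM. The groups did not overlap in either set, and the log2 ratios of the means were 0.54 and 0.66. In both genotypes *Mael* was higher with little *Gm42418* than with much, without overlap of the sets. *Piwil1* was lower in double mutants in both sets, at 17.1 to 21.8 against 22.03 to 30.5 CPM and at 14.9 to 21.0 against 24.7 to 26.3 CPM. *Asz1* also moved with the set. With much *Gm42418* it was at 52.9 to 59.1 CPM in double mutants and 66.6 to 74.2 CPM in controls. With little *Gm42418* it was at 78.9 to 95.1 and 85.4 to 97.7 CPM. Its groups were apart in the former set and overlapped in the latter. With 2 libraries per group and set, no test was made.

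**Figure D4:**
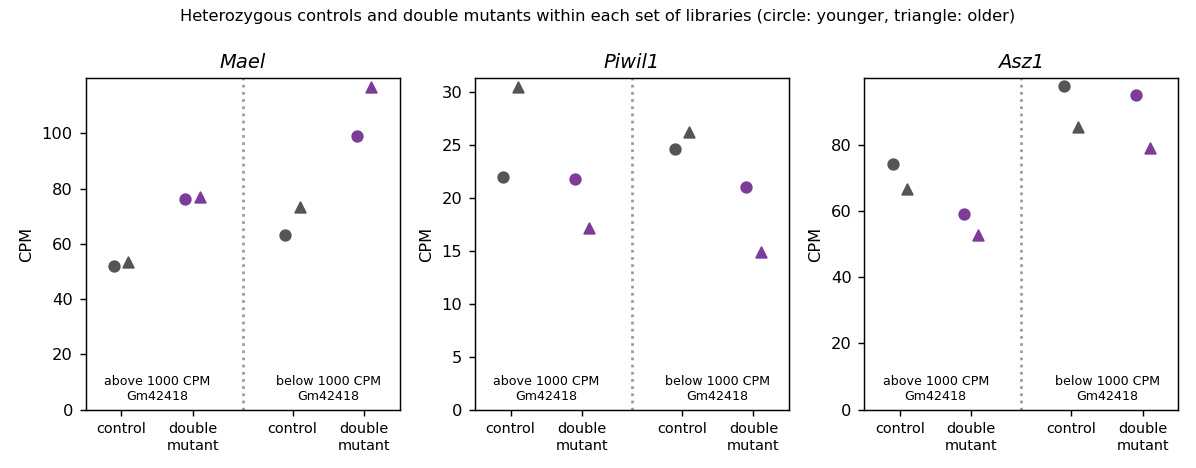
CPM (axes from 0) of *Mael*, *Piwil1* and *Asz1* in heterozygous controls (grey) and double mutants (purple), parted by the *Gm42418* level of the library at 1000 CPM, with circles for females of 10 to 17 weeks and triangles for those of 35 to 40 weeks. Double mutants are above controls for *Mael* and below for *Piwil1* in both sets. *Mael* and *Asz1* are higher in both genotypes where *Gm42418* is low.

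Age was fitted with genotype over all libraries of the paired-end run. Only controls and double mutants held both ages, with 4 libraries from females of 35 to 40 weeks and 4 from females of 10 to 17 weeks. The RNAi mutants, all younger, entered the estimate of the spread. By edgeR's quasi-likelihood test 0 of 9 members passed, where 0.0143% of all tested genes did, and DESeq2 called 0. An unadjusted p under 0.05 was found for 2 members, which are named here after their values were seen. *Pld6* was lower in the older females by a log2 fold change of -0.96 ± 0.40 (adjusted p = 0.725), on 12 to 41 counts per library, and *Tdrd1* higher by 0.22 ± 0.10 (adjusted p = 0.736).

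Another 24 genes of the pathway were counted as a list, and all 24 were tested in both runs. In *Dicer* SOM/SOM against WT, 6 were higher (*Spocd1*, *Dnmt3c*, *Mov10*, *Fkbp6*, *Tex19.1*, *Tdrd7*) and 3 lower (*Mybl1*, *Tdrd5*, *Henmt1*) of the 24, where 14.5% of all tested genes were higher and 14.2% lower, with a median log2 fold change of -0.06 over the list and 0.02 over all tested genes. In *Dicer* ΔMT/ΔMT, *Fkbp6* was higher and *Pnldc1* and *Tdrd6* lower (8.06% and 7.3% of all genes). In *Dicer* SOM/SOM against *Dicer* ΔMT/ΔMT, 3 of 24 were higher (*Spocd1*, *Dnmt3c*, *Mov10*) and 1 was lower (*Mybl1*), with 4.03% and 3.32% of all genes. In RNAi mutants, 2 of 24, *Spocd1* and *Dnmt3c*, were higher and 0 lower (7.07% and 3.64% of all genes). In double mutants, *Spocd1* and *Dnmt3c* were higher and *Mybl1* lower (12.3% and 8.84% of all genes). Between double mutants and RNAi mutants, between ages and between the runs, 0 of 24 passed with edgeR's quasi-likelihood test, while 2, 1 and 4 had an unadjusted p under 0.05.

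The largest rises of the list were those of *Spocd1* and *Dnmt3c*. *Spocd1*, a partner of MIWI2 in piRNA-directed DNA methylation, had 8.38, 6.17 and 7.42 CPM in WT, 5.08, 7.59, 6.00 and 8.13 CPM in *Dicer* ΔMT/ΔMT and 22.15, 20.9 and 28.6 CPM in *Dicer* SOM/SOM. The SOM/SOM libraries stood above all others of the run. The log2 fold change was 1.69 ± 0.20 against WT (adjusted p = 0.000118) and 1.82 ± 0.18 against *Dicer* ΔMT/ΔMT (adjusted p = 0.000236).

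In the paired-end run *Spocd1* was at 4.43, 4.83, 5.88 and 6.01 CPM in controls 1o, 2o, 2 and 3, at 14.001 and 15.5 CPM in RNAi mutants and at 18.1, 13.8, 12.8 and 9.58 CPM in double mutants 1o, 2o, 1 and 2. It rose by 1.48 ± 0.24 in RNAi mutants (adjusted p = 0.000932) and by 1.36 ± 0.20 in double mutants (adjusted p = 0.000289) on the log2 scale. The call in double mutants was lost in younger females only (0.92, adjusted p = 0.0524). The piRNA mutant, with 5.40 CPM, lay within the controls.

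*Dnmt3c*, the rodent methyltransferase of young retrotransposon promoters, had 2.47, 3.13 and 4.98 CPM in WT, 4.89, 4.19, 4.52 and 4.61 CPM in *Dicer* ΔMT/ΔMT and 8.38, 11.0 and 7.05 CPM in *Dicer* SOM/SOM. Its rise was 1.36 ± 0.25 against WT (adjusted p = 0.00200) and 0.99 ± 0.22 against *Dicer* ΔMT/ΔMT (adjusted p = 0.0236) on the log2 scale. The latter call was lost without *Dicer* SOM/SOM replicate 2 (adjusted p = 0.0866) and without *Dicer* ΔMT/ΔMT replicate 1, 2, 3 or 4 (0.0510, 0.0746, 0.0613 and 0.0543) and with a replicate block (0.0797). In the paired-end run it was at 1.07 to 1.92 CPM in controls, 5.88 to 6.31 in RNAi mutants and 5.33 to 6.70 in double mutants, with log2 fold changes of 1.93 ± 0.25 and 1.95 ± 0.22 (adjusted p = 0.000181 and 2.71e-05). RNAi and double mutants lay above all controls, and the piRNA mutant, with 1.86 CPM, within them.

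*Mov10*, a helicase that restricts retrotransposons and the relative of *Mov10l1*, had 13.5, 9.93 and 13.0 CPM in WT and 20.8, 19.2 and 35.9 CPM in *Dicer* SOM/SOM, a rise of 1.03 ± 0.22 on the log2 scale (adjusted p = 0.00542). Replicate 3, the library with the fewest counts, was the highest. In the paired-end run *Mov10* was not called. Its log2 fold change was 0.60 in RNAi mutants (adjusted p = 0.437) and 0.85 in double mutants (adjusted p = 0.106). The latter passed with DESeq2 (adjusted p = 0.0487) and without a filter (0.0197). *Mybl1*, the transcription factor of piRNA clusters in spermatocytes, went the other way. It had 89.1, 96.5 and 77.0 CPM in WT and 52.9, 48.3 and 44.4 CPM in *Dicer* SOM/SOM, and fell by 0.84 ± 0.13 on the log2 scale (adjusted p = 0.000782). In double mutants it was at 65.3 to 72.9 CPM against 84.1 to 117 CPM in controls and fell by 0.47 ± 0.13 on the log2 scale (adjusted p = 0.0174), a call that was lost without heterozygous control replicate 3 (adjusted p = 0.0613), with a replicate block (0.102) and in younger females only (0.140). RNAi mutants had 68.1 and 71.0 CPM, also below the controls.

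**Figure D5:**
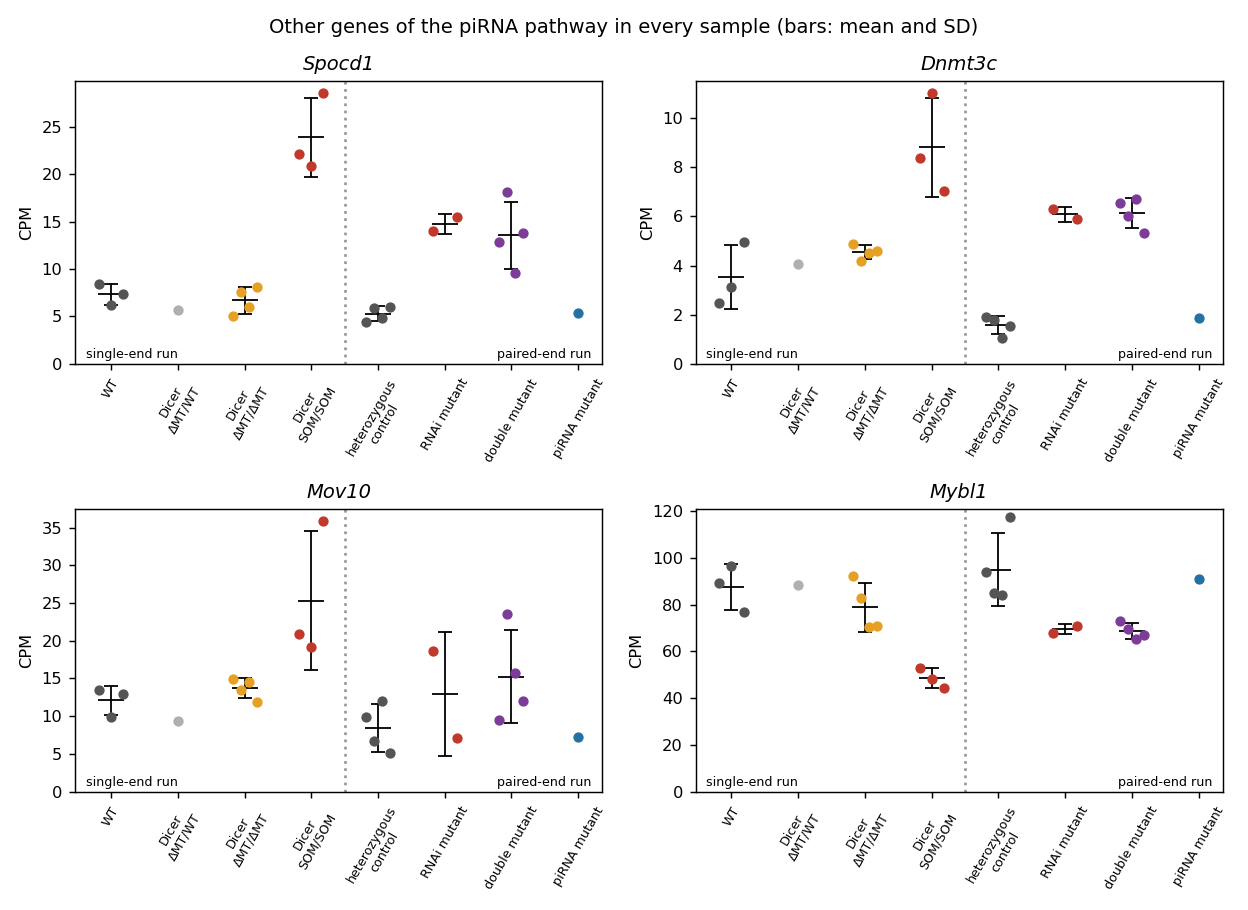
CPM (axes from 0) of *Spocd1*, *Dnmt3c*, *Mov10* and *Mybl1* in each of the 22 libraries, with bars for the mean and SD of groups with more than 1 library and a dotted line between the runs. *Spocd1* and *Dnmt3c* are above the controls of their run in *Dicer* SOM/SOM, RNAi mutant and double mutant libraries, and *Mybl1* is below.

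The other called genes of the list had smaller changes against WT in the single-end run than *Spocd1* and *Dnmt3c* in *Dicer* SOM/SOM. Against WT, *Fkbp6*, a co-chaperone of piRNA loading, was higher by 0.47 ± 0.15 on the log2 scale in *Dicer* SOM/SOM (adjusted p = 0.0400) and by 0.55 ± 0.14 in *Dicer* ΔMT/ΔMT (adjusted p = 0.0229). The Tudor-domain genes *Tdrd7* and *Tdrd5* changed by 0.40 ± 0.12 and -0.37 ± 0.09 in *Dicer* SOM/SOM (adjusted p = 0.0281 and 0.0119), and *Tdrd6* by -1.05 ± 0.29 in *Dicer* ΔMT/ΔMT (adjusted p = 0.0321). *Henmt1*, which methylates piRNA ends, changed by -0.27 ± 0.08 in *Dicer* SOM/SOM (adjusted p = 0.0276) and *Pnldc1*, which trims them, by -0.55 ± 0.15 in *Dicer* ΔMT/ΔMT (adjusted p = 0.0337). *Tex19.1*, a germ cell gene that acts on retrotransposons, was higher by 0.47 ± 0.13 in *Dicer* SOM/SOM (adjusted p = 0.0192). *Henmt1* and *Tdrd5* share 14.2% and 4.68% of their exon bases with genes on the opposite strand, *Gm9857* and *4930518J20Rik*. Of these genes, *Tdrd5* passed in 15 of 16 alternatives and *Fkbp6*, *Henmt1*, *Tdrd7*, *Tex19.1*, *Pnldc1* and *Tdrd6* in 5 to 12 of the 15 or 16 tried.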

How the data were processed

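RNA-seq of mouse GV oocytes was analysed in 22 libraries of 8 genotypes, grouped by the genotype in the labels. According to the methods, reads were mapped to GRCm38 (mm10 in the submitters' processing notes, which name STAR 2.5.3a and featureCounts) and counted on GENCODE M15 genes. The authors deposited estimated counts per gene: reads with several places or genes were kept and divided, and strand was ignored, so genes on opposite strands share reads. Counts were not normalized. Symbols were matched for 52403 of 52636 gene IDs.

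Counts were rounded. Each run was fitted on its own with edgeR 4.0.16 (R 4.3.3), with TMM scaling, filterByExpr (minimum count 10, minimum total 15), 1 coefficient per genotype and the quasi-likelihood F test. P-values were adjusted by Benjamini-Hochberg over all tested genes, with a threshold of 0.05. The difference between the runs and that between ages were coefficients of such fits. The *Dicer* ΔMT/WT library was left out of the fits. The piRNA mutant was in the paired-end fits with its own coefficient, but has no replicate, and its values are only described. 95% intervals of fold changes come from the SE and the degrees of freedom of the fit. Single members were also compared by exact two-sided permutation tests of CPM. Fitted values were checked on simulated counts. Replicates differed by 12.1 to 98.7 times the variance of counting error, so none was counted as a duplicate. At 3 counts the floor was 0.0352 to 0.431 CPM in the single-end run and 0.0677 to 0.130 CPM in the paired-end run, which covers counting error only.

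All 10 members are named, the list of 24 other pathway genes is counted and its called genes are named. Members, lists and tests were chosen with earlier results of these data known. Similar transcripts were sought with blastn 2.17.0+ in GENCODE M21. Alternatives were DESeq2 1.42.0, its size factors in edgeR, no filter, a filter at 5 CPM, fits of the compared groups only, a replicate block, each library left out and, in the paired-end run, an age term and younger females only. A term for the *Gm42418* sets (parted at 1000 CPM) and a fit of the double mutant effect within each age were added after seeing the data. The deposited table of repeats was not used here.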

Additional observations from a re-analysis of the deposited data

Results flagged for a closer look

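Each member was checked for a library that stood apart in the groups of 4, that is, whose gap to the nearest other library, as a share of the range of the group, exceeded Dixon's 95% critical value for 4 samples. Of 30 groups, 3 held such a library, where chance gives about 1 in 20. *Piwil1* was at 31.9 CPM in *Dicer* ΔMT/ΔMT replicate 3, above 23.1 to 24.5 CPM in the other replicates. *Tdrd1* was at 1470 CPM in *Dicer* ΔMT/ΔMT replicate 4, above 1413 to 1422 CPM in the others. *Piwil4* was at 0.721 CPM in heterozygous control replicate 2, from 26 counts, above 0 to 0.123 CPM in the others. No member's *Dicer* SOM/SOM effect differed between the runs at the threshold (edgeR's quasi-likelihood test, 0 of 9, and 1 with an unadjusted p under 0.05). The double mutant effect on *Piwil2* went in opposite directions in the ages, with every older double mutant above the older controls and every younger one below the younger controls, and the difference of the effects was 2.13 ± 0.45 on the log2 scale (95% interval 1.13 to 3.12, adjusted p = 0.548 with edgeR's quasi-likelihood test and 0.0195 with DESeq2), with 2 libraries per age and genotype.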

How the results depend on the processing

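The rise of *Mael* kept its direction under every alternative against WT and against heterozygous controls. Its call held in all 16 alternatives for *Dicer* SOM/SOM and for *Dicer* ΔMT/ΔMT, in 12 of 20 for RNAi mutants and in 16 of 20 for double mutants. No called value of a member or of another pathway gene changed sign. The number of members called in *Dicer* SOM/SOM against WT stayed between 3 and 5, and that of double mutants against RNAi mutants, of ages and of runs stayed at 0. With DESeq2 the number was 3 in place of 1 between *Dicer* SOM/SOM and *Dicer* ΔMT/ΔMT, 2 in place of 1 in *Dicer* ΔMT/ΔMT against WT and 2 in place of 1 in double mutants against heterozygous controls. With a filter at 5 CPM it was 3 between the *Dicer* alleles and 2 in *Dicer* ΔMT/ΔMT against WT. Without a filter it was 0 between the alleles, and with only the compared groups 0 between the alleles and 2 in *Dicer* ΔMT/ΔMT against WT. In RNAi mutants it was 0 with an age term and 0 in younger females only (adjusted p of *Mael* 0.0501 and 0.0671). In double mutants it was 0 in younger females only, with fewer libraries (adjusted p of *Mael* 0.0977), and 2 with the term for the *Gm42418* sets, where *Piwil1* joined. With any library left out, the number was 0 to 2 between the alleles, 1 to 2 in *Dicer* ΔMT/ΔMT against WT, 0 to 1 in RNAi mutants and 0 to 2 in double mutants. Beyond the number of libraries or genes tested, the cause of these changes was not tested.

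Groups shared replicate numbers, and same-numbered libraries had correlations of -0.04 to 0.11 (single-end) and -0.18 to 0.32 (paired-end). In 6 of 12 cases, over 4 pairs of groups, a library correlated best with its own number. Between controls and double mutants, replicates 1o and 2 had the highest values (0.318 and 0.301), and same-numbered libraries there also shared age class and *Gm42418* set. These values do not settle whether the numbers mark pairs, and the main fits took no pairs. With a replicate block, the number of members called was 0 between the *Dicer* alleles, 0 in RNAi mutants (adjusted p of *Mael* 0.0842) and 2 in double mutants, where *Piwil1* joined *Mael*, and the calls over all genes went from 2247 to 1228 in RNAi mutants and from 4447 to 3381 in double mutants.

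Depth limits *Piwil4* and *Pld6* above all, and *Dicer* SOM/SOM replicate 3, with 6 counts of *Pld6* and 70 of *Piwil2*.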
